A study of Mus musculus with 40 samples.

Results

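The mitotic spindle and checkpoint module is a set of 42 genes that cells use to enter and complete mitosis, chosen by name from the cell biology of division and matched by symbol to the Ensembl identifiers of the deposited tables. The choice was made with earlier results of these data known, so it was not blind to them. All 42 were found among the 55536 genes of each table. They comprise 9 cyclins and mitotic kinases, 4 spindle checkpoint genes, 4 regulators of anaphase, 5 kinetochore and centromere genes, 2 partners of the chromosomal passenger complex, 4 spindle motors, 5 spindle assembly or microtubule-binding genes, 6 genes of the central spindle and cytokinesis, and 3 chromatin or transcription genes. Their smallest count in any library was 5, their median count was 78 and their largest was 2754, and all 42 passed the low-count filter of every comparison.

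RNA was sequenced from the left lungs of C57BL/6 mice in 2 models of lung fibrosis, with 8 groups of 5 mice. In one model the mice received 1.5 U/kg bleomycin or saline into the oropharynx. In the other they received an adenovirus that carries mouse TGF-β1 under the CMV promoter, called Ad-TGFβ1 here, or an empty adenoviral vector, by the nose. From day 10 to day 27 the mice of each arm were gavaged daily with 20 mg/kg saracatinib, an inhibitor of Src family kinases, or with vehicle. Harvest followed on day 28, and the labels give 18 days as the treatment time. The 4 groups of the bleomycin model are saline vehicle, saline saracatinib, bleomycin vehicle and bleomycin saracatinib. The 4 groups of the adenoviral model are empty vector vehicle, empty vector saracatinib, Ad-TGFβ1 vehicle and Ad-TGFβ1 saracatinib. The viral promoter is not restricted to one lung cell type, and all 4 of the adenoviral groups carry a viral vector.

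A dividing cell builds a bipolar spindle whose microtubules attach to kinetochores on the centromeres. Cyclin B with Cdk1 drives entry into mitosis, and the spindle checkpoint holds the anaphase-promoting complex inactive until the chromosomes are attached. Cdc20 then activates that complex, which marks cyclin B and securin for destruction, separase cuts cohesin, and the central spindle directs cytokinesis. Transcripts of these genes are made mainly in G2 and M phase and are scarce in resting cells, which make up most of the adult lung.

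Libraries held 8812233 to 17336972 counts, with TMM scaling factors of 0.949 to 1.04. Summed markers of alveolar type 2 cells, which make surfactant, ranged from 5542 to 10925 CPM (counts scaled to a common library size), so every library carried the tissue's defining transcripts. The labels describe both sexes, and the largest Xist count in any library was 12. Each library was taken as 1 mouse of its group. All 80 pairs of libraries within a group differed by more than counting noise. Libraries were ranked by distance from their group on the first 2 principal components of each model. The top 3 are named, with no cutoff. In the bleomycin model they were saline saracatinib 5 (53.5), saline vehicle 5 (34.6) and bleomycin vehicle 3 (34.3), with the next at 30.3. In the adenoviral model they were empty vector vehicle 5 (53.1) and 1 (43.5) and empty vector saracatinib 2 (36.1), with the next at 29.5. Empty vector vehicle library 3 had the smallest distance of that model (8.17).

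Mitotic transcripts were most abundant in bleomycin vehicle lungs, intermediate in the adenoviral groups and least abundant in saline lungs. Summed over the 42 genes, saline vehicle libraries held 241, 270.4, 321, 263 and 269 CPM and saline saracatinib libraries 272, 236, 259, 208 and 247. The 5 bleomycin vehicle libraries held 394, 849, 1146, 542 and 645 CPM, and the 5 bleomycin saracatinib libraries 431, 265, 248, 316 and 252. All bleomycin vehicle libraries but the first stood above all libraries of the other 3 groups of that model, and the first, at 394 CPM, lay below bleomycin saracatinib library 1 at 431 CPM. Empty vector vehicle libraries held 397, 326, 761, 539.9 and 329 CPM, empty vector saracatinib libraries 274, 430.2, 445, 373 and 329, Ad-TGFβ1 vehicle libraries 515, 631, 505, 511 and 560.3 and Ad-TGFβ1 saracatinib libraries 525, 381, 677, 465 and 512. Empty vector vehicle library 3, at 761 CPM, was the highest of that model, and all empty vector saracatinib libraries, at most 445 CPM, lay below all Ad-TGFβ1 vehicle libraries, at least 505 CPM. CPM are scaled within each model unless stated, which bears on levels set across the 2 models.

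**Figure D1:**
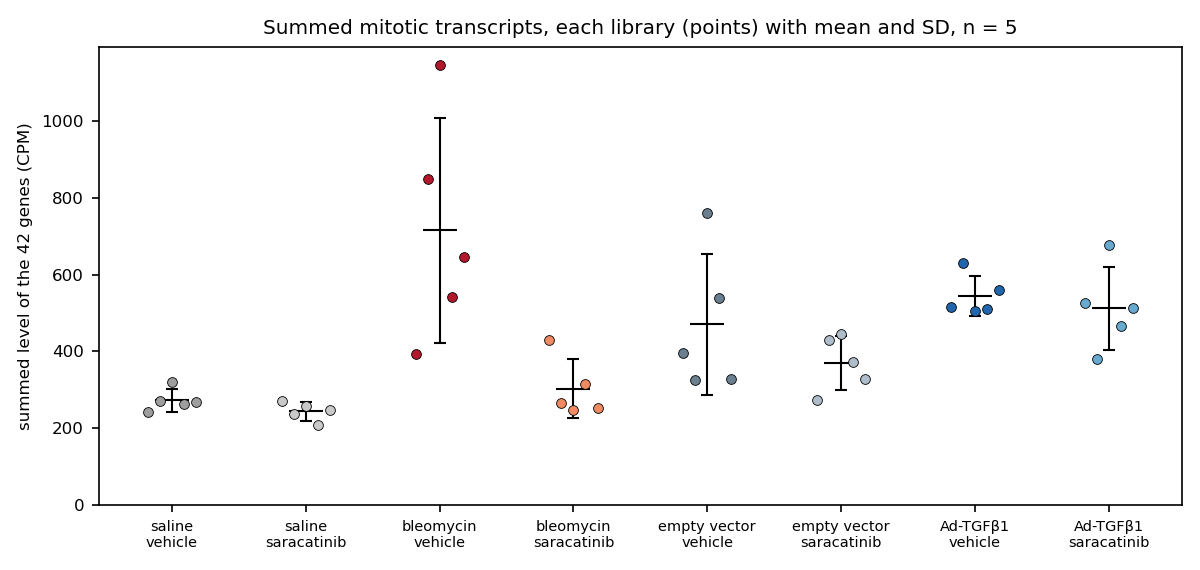
Summed level of the 42 mitotic genes in CPM (linear axis from 0) in each of 40 libraries (points), with the mean and SD of the 5 libraries of each group. Bleomycin vehicle lungs reach 1146 CPM, while bleomycin saracatinib lungs lie between 248 and 431 CPM and saline vehicle lungs between 241 and 321 CPM.

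Spread within a group was shared across most of the module in several groups and less so in others. Bleomycin vehicle library 3 had the highest level of its group for 40 of the 42 genes, and library 1 had the lowest for 40. In the same way empty vector vehicle library 3 was highest for 40 genes, bleomycin saracatinib library 1 for 37, Ad-TGFβ1 vehicle library 2 for 35 and Ad-TGFβ1 saracatinib library 3 for 38. Sharing was weaker in saline lungs, where saline vehicle library 3 was highest for 25 genes and saline saracatinib library 1 for 21. In empty vector saracatinib lungs, library 2 was highest for 19 and library 3 for 18, but library 1 was lowest for 33. Ad-TGFβ1 saracatinib library 2 was lowest for 37 genes. No library was lowest for more than 20 genes in empty vector vehicle, 17 in Ad-TGFβ1 vehicle or 13 in bleomycin saracatinib lungs. The same count was not made over all genes. The coefficient of variation of the summed level was 40.8% in bleomycin vehicle and 39.1% in empty vector vehicle lungs, against 9.8% in Ad-TGFβ1 vehicle, 10.0% in saline saracatinib and 10.8% in saline vehicle lungs. In bulk lung RNA, a change in the number of dividing cells and a change in mitotic RNA per cell cannot be told apart.

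**Figure D2:**
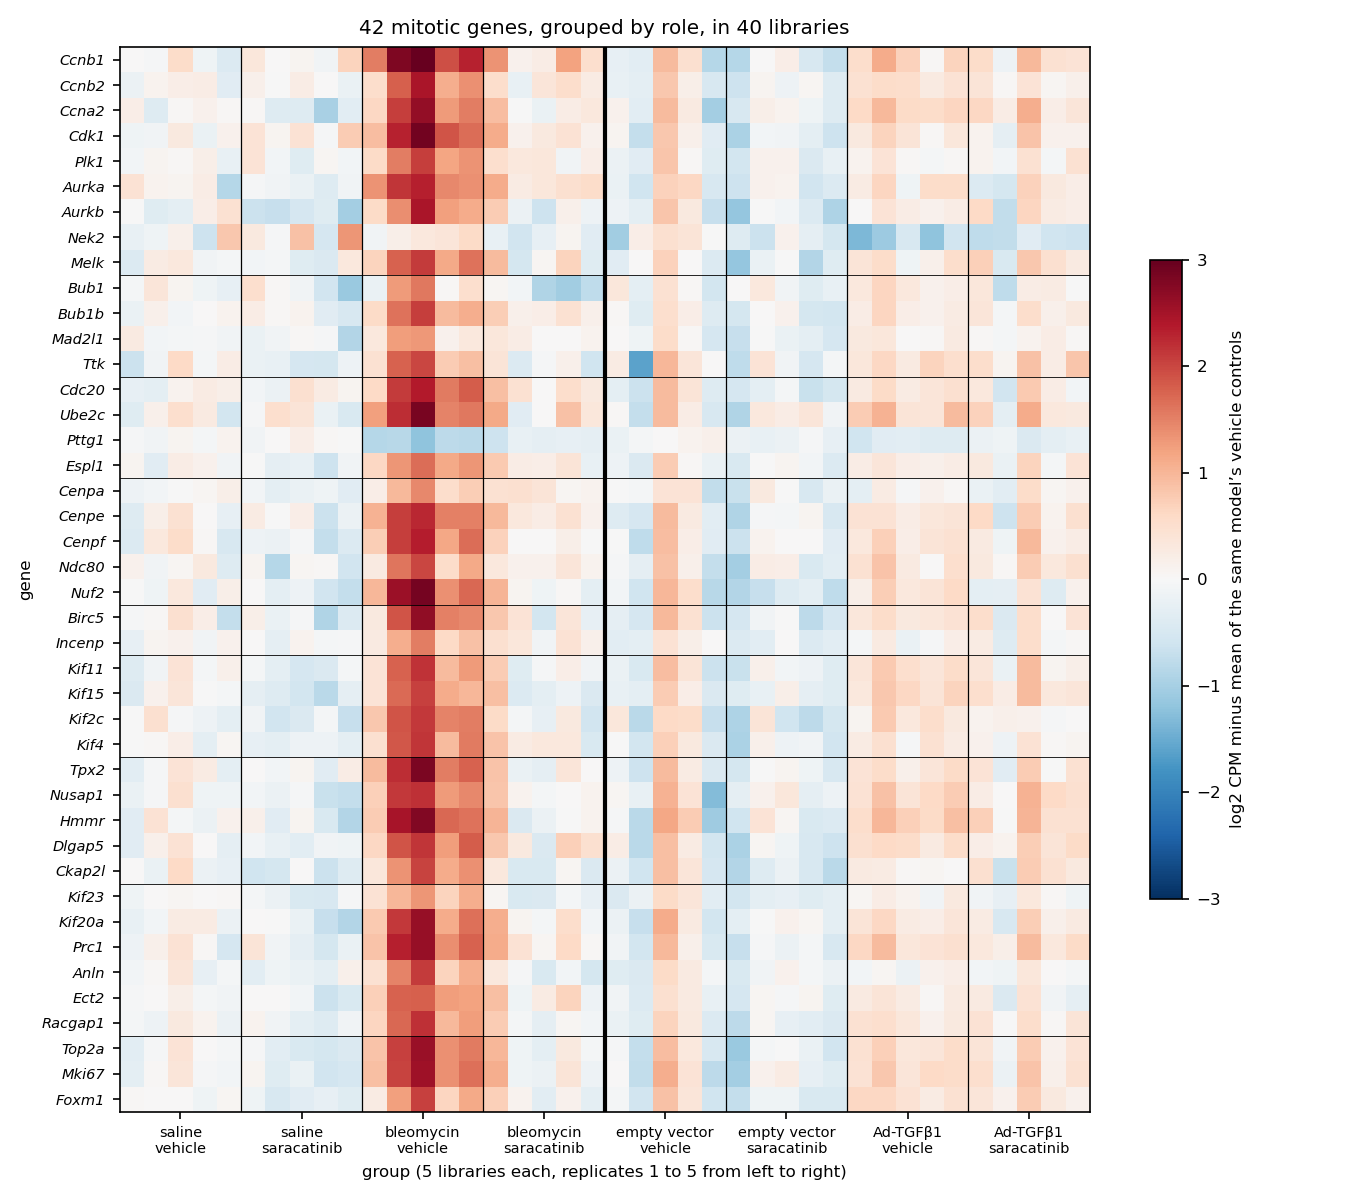
Level of each of the 42 genes (rows, grouped by role and separated by thin lines) in each of 40 libraries (columns, 5 per group), as log2 CPM minus the mean of the vehicle-treated control group of the same model (saline or empty vector). Red is higher and blue is lower; bleomycin vehicle libraries are red in nearly every row, Pttg1 is blue there, and library 3 of bleomycin vehicle and of empty vector vehicle stand out from their groups.

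By group mean CPM, 39 of the 42 genes were highest in bleomycin vehicle lungs, and 33 were lowest in saline saracatinib lungs. With all 40 libraries scaled together the counts were 40 and 33, the difference being Mad2l1, which was highest in Ad-TGFβ1 vehicle lungs when scaled within each model. Pttg1, which encodes securin, was highest in saline saracatinib lungs and lowest in bleomycin vehicle lungs, and the centrosomal kinase gene Nek2 was highest in empty vector vehicle lungs. Compared per length, as CPM divided by exon length in kilobases (RPKM), the median gene had a mean level of 0.82 RPKM in saline vehicle and 2.5 RPKM in bleomycin vehicle lungs. Mki67 and Top2a had the highest per-length levels in bleomycin vehicle lungs, at 12.7 and 7.45 RPKM, and the checkpoint kinase gene Ttk had the lowest at 0.799 RPKM. In saline vehicle lungs Pttg1 stood highest at 12.1 RPKM, followed by Mki67 at 3.65 RPKM, and the kinetochore gene Nuf2 was lowest at 0.204 RPKM.

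Bleomycin raised nearly the whole module in vehicle-treated lungs: 39 of the 42 genes rose and 1 fell (edgeR's quasi-likelihood test, adjusted p under 0.05 over 18846 genes). Among all genes tested in that comparison, 20.6% were called higher and 20.3% lower. The median log2 fold change of the 42 genes was 1.58, a 2.99-fold difference, against -0.03 over all genes tested. The largest rise was that of the cyclin B1 gene Ccnb1 (log2 fold change 2.63 ± 0.35, SE from the fit), and the single fall that of Pttg1 (-0.90 ± 0.09). The 2 genes not called were the checkpoint kinase gene Bub1 at 0.81 ± 0.33 (adjusted p = 0.0548) and Nek2 at 0.21 ± 0.28 (adjusted p = 0.571). For 33 of the 42 genes all 5 bleomycin vehicle libraries lay above all 5 saline vehicle libraries, where 14.2% of all genes tested did so.

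Saracatinib lowered the module in bleomycin lungs: 40 of the 42 genes fell and 1 rose, where 8.71% of all genes tested were called lower and 5.31% higher. The median log2 fold change was -1.36, a 2.56-fold difference, against 0.01 over all genes tested. Nuf2 fell furthest (-1.96 ± 0.33), Pttg1 was the gene that rose (0.57 ± 0.09), and Nek2 was not called at -0.53 ± 0.28 (adjusted p = 0.217). For 12 of the 42 genes all 5 saracatinib libraries lay below all 5 vehicle libraries, where 6.04% of all genes did so, for Pttg1 they lay above (3.9% of all genes), and for 29 the groups overlapped. The 2 comparisons share the bleomycin vehicle libraries. Without bleomycin vehicle library 3 the falls numbered 36 and the median was -1.13, and Mad2l1, Cenpa, Incenp and Bub1 were then no longer called.

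**Figure D3:**
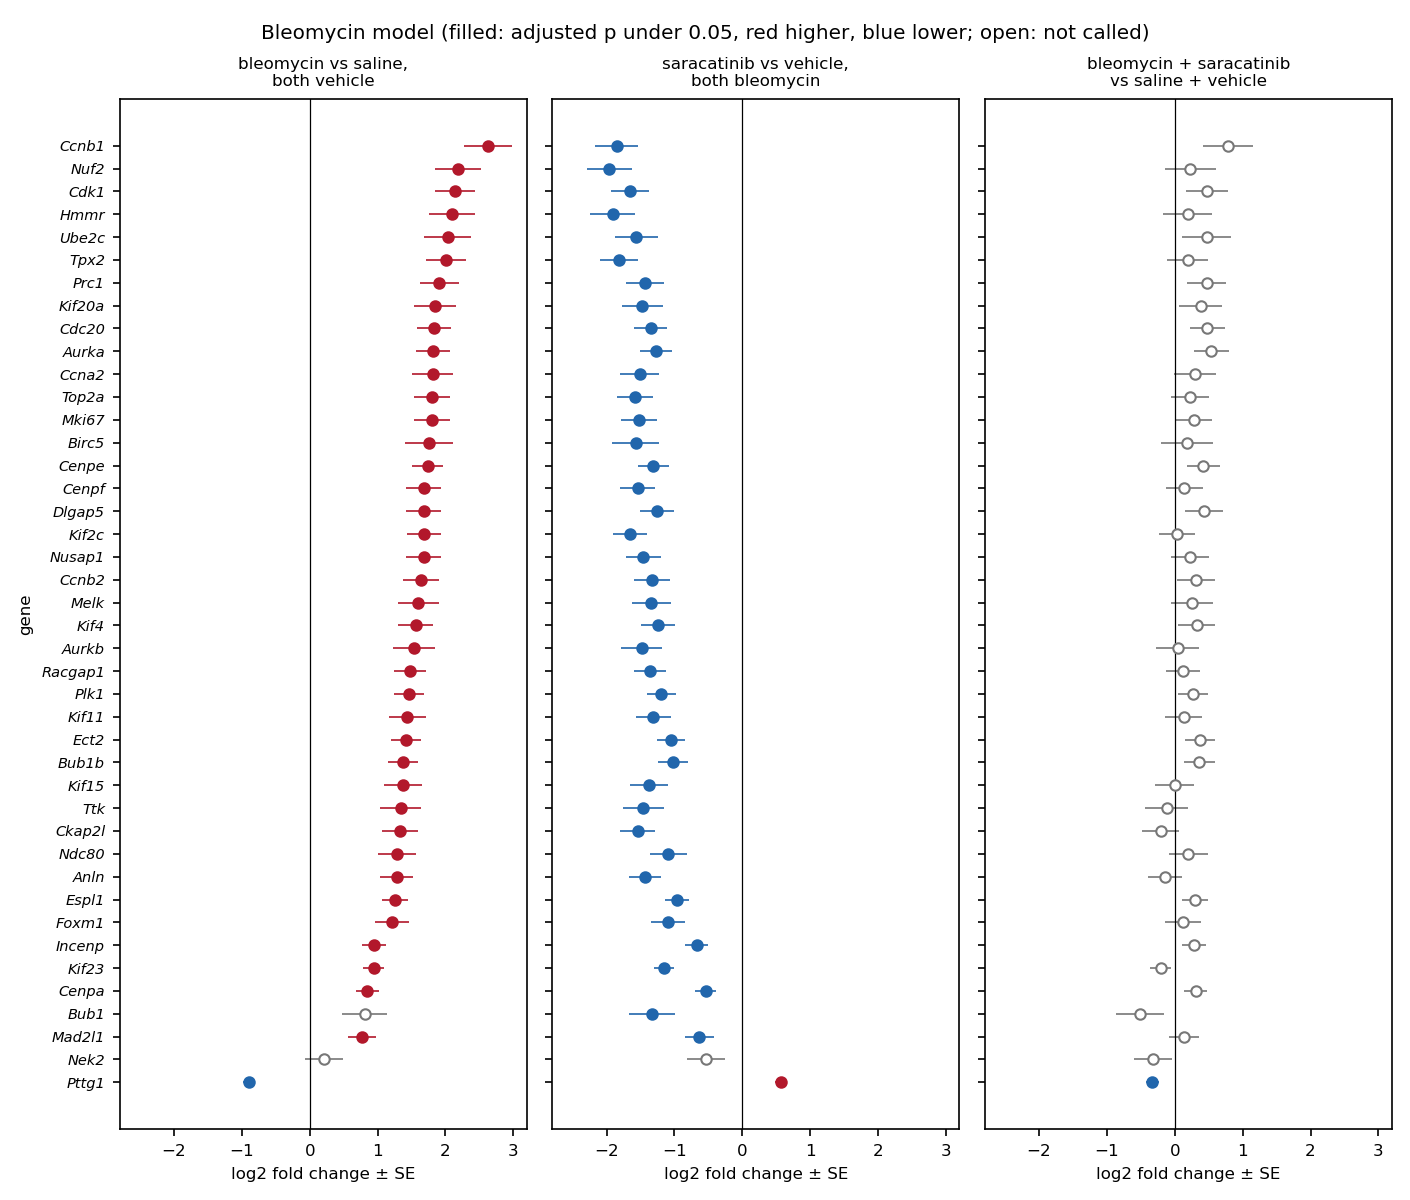
Log2 fold change with its SE for each of the 42 genes (rows, ordered by the bleomycin effect) in 3 comparisons of the bleomycin model; filled red points are called higher, filled blue points lower, and open grey points are not called. Bleomycin points lie between -0.90 (Pttg1) and 2.63 (Ccnb1), saracatinib points in bleomycin lungs between -1.96 (Nuf2) and 0.57 (Pttg1), and the right panel, bleomycin with saracatinib against saline with vehicle, is centred near 0.

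Among the cyclins and mitotic kinases, 8 of 9 rose with bleomycin and 8 of 9 fell with saracatinib in bleomycin lungs, with Nek2 the gene not called in both. Ccnb1 (ENSMUSG00000041431, chr13:100778650-100786570, GRCm38 positions here and for each gene) encodes the cyclin that activates Cdk1 at mitotic entry. Its 5 saline vehicle libraries read 1.19, 1.15, 1.78, 1.07 and 0.838 CPM, its bleomycin vehicle libraries 3.68, 9.03, 13.9, 4.86 and 6.39 CPM, and its bleomycin saracatinib libraries 3.2, 1.3, 1.39, 2.91 and 1.72 CPM. Saline saracatinib libraries read 1.53, 1.17, 1.24, 1.07 and 1.95 CPM. All bleomycin vehicle libraries lay above those of both other groups, and the fall with saracatinib was -1.85 ± 0.32 (adjusted p = 0.00225). The counts of Ccnb1, Ccnb2 and Kif4 may lose reads to the pseudogenes Ccnb1-ps, Ccnb2-ps and Kif4-ps.

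Cdk1 (ENSMUSG00000019942, chr10:69335146-69352938), the kinase that cyclin B activates, read 2.31, 2.37, 3.16, 2.22 and 2.83 CPM in saline vehicle and 4.99, 13.4, 20.1, 9.9 and 8.47 CPM in bleomycin vehicle lungs. It read 3.42, 2.73, 3.5, 2.51 and 4.42 CPM in saline saracatinib and 5.71, 2.81, 3.16, 3.52 and 2.81 CPM in bleomycin saracatinib lungs. Cdk1 rose by 2.14 ± 0.30 with bleomycin and changed by -1.66 ± 0.28 with saracatinib in bleomycin lungs. Its bleomycin vehicle and bleomycin saracatinib groups overlapped because saracatinib library 1 exceeded vehicle library 1. Plk1 (ENSMUSG00000030867, chr7:122159439-122169873), a polo-like kinase needed for bipolar spindles, read 2.91, 3.28, 3.16, 3.47 and 2.62 CPM in saline vehicle and 4.66, 9.2, 13.4, 7.16 and 8.12 CPM in bleomycin vehicle lungs. With saracatinib it read 4.15, 2.88, 2.37, 3.22 and 2.88 CPM after saline and 4.42, 3.89, 3.93, 2.83 and 3.52 CPM after bleomycin. Its bleomycin vehicle libraries stood above every saline vehicle and every bleomycin saracatinib library, with log2 fold changes of 1.46 ± 0.22 for bleomycin and -1.19 ± 0.21 for saracatinib. Plk1 shares 7.09% of its exon bases with Gm44985 on the opposite strand.

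Aurkb (ENSMUSG00000020897, chr11:69045647-69051664), the kinase of the chromosomal passenger complex, read 2.46, 1.88, 2.01, 2.85 and 3.45 CPM in saline vehicle and 3.76, 6.75, 14.2, 6.01 and 5.48 CPM in bleomycin vehicle lungs. After saracatinib it read 1.53, 1.48, 1.69, 1.88 and 1.13 CPM in saline and 4.27, 2.16, 1.54, 2.76 and 2.19 CPM in bleomycin lungs. Library 3 stood far above the other 4 of its group at 14.2 CPM, and the log2 fold changes were 1.53 ± 0.31 and -1.48 ± 0.30. Of the remaining kinases and cyclins, the centrosomal kinase Aurka changed by 1.81 ± 0.25 with bleomycin and -1.27 ± 0.24 with saracatinib, with no overlap between groups in either comparison. Ccnb2 changed by 1.64 ± 0.27 and -1.33 ± 0.26, the S and G2 cyclin Ccna2 by 1.81 ± 0.30 and -1.51 ± 0.29, and the kinase Melk by 1.60 ± 0.30 and -1.34 ± 0.29. All 4 were called in both comparisons, and Ccna2 shares 12.5% of its exon bases with Exosc9 on the opposite strand.

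Spindle checkpoint genes had the lowest median of the 9 roles for bleomycin, at 1.08, and a median of -1.18 for saracatinib in bleomycin lungs; 3 of 4 rose and 4 of 4 fell. Bub1b (ENSMUSG00000040084, chr2:118598211-118641591) encodes BubR1, part of the complex that inhibits Cdc20. It read 6.04, 7.7, 6.56, 7.02 and 7.54 CPM in saline vehicle, 10.5, 21.7, 29.9, 13.5 and 14.9 CPM in bleomycin vehicle and 11.7, 7.72, 7.94, 9.57 and 7.73 CPM in bleomycin saracatinib lungs. In saline saracatinib lungs Bub1b read 8.18, 7.16, 7.45, 5.46 and 4.94 CPM. Bleomycin vehicle libraries all lay above saline vehicle libraries (1.38 ± 0.22), and they overlapped with bleomycin saracatinib libraries (-1.02 ± 0.22, adjusted p = 0.00583). Mad2l1 (ENSMUSG00000029910, chr6:66535390-66547220), which encodes the Mad2 protein that unattached kinetochores switch on, had the smallest changes among the called checkpoint genes. It read 7.83, 6.14, 6.25, 6.4 and 6.07 CPM in saline vehicle and 8.18, 15.9, 16.2, 7.16 and 8.12 CPM in bleomycin vehicle lungs, and the groups overlapped (0.77 ± 0.21). With saracatinib it read 5.68, 6.07, 6.66, 6.36 and 3.5 CPM after saline and 8.23, 7.57, 6.55, 6.51 and 7.03 CPM after bleomycin. The fall was -0.63 ± 0.21 (adjusted p = 0.0492) and was lost when any of 6 libraries was left out, with adjusted p up to 0.174. Ttk, the Mps1 kinase at the top of the checkpoint, changed by 1.34 ± 0.30 and -1.46 ± 0.30.

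Regulators of anaphase split, since 3 of 4 rose with bleomycin and fell with saracatinib while Pttg1 did the opposite. Cdc20 (ENSMUSG00000006398, chr4:118432901-118437352), the activator of the anaphase-promoting complex, read 2.68, 2.62, 3.47, 3.82 and 3.66 CPM in saline vehicle and 4.91, 14.1, 17.2, 9.72 and 11.7 CPM in bleomycin vehicle lungs. It read 2.99, 2.8, 4.52, 3.85 and 3.39 CPM in saline saracatinib and 6.17, 4.47, 3.24, 4.75 and 3.98 CPM in bleomycin saracatinib lungs. The rise was 1.83 ± 0.25 with no overlap, and the fall -1.35 ± 0.24 with overlap through vehicle library 1 and saracatinib library 1. Ube2c, the ubiquitin-conjugating enzyme of that complex, changed by 2.03 ± 0.34 and -1.56 ± 0.32, and separase, encoded by Espl1, by 1.26 ± 0.19 and -0.96 ± 0.18; all 4 values were called. Ube2c shares 22.8% of its exon bases with the muscle troponin gene Tnnc2 and Cdc20 shares 2.84% with Elovl1, both on the opposite strand.

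Pttg1 (ENSMUSG00000020415, chr11:43420250-43426251) encodes securin, which holds separase inactive until anaphase. It read 23.6, 22.4, 25.7, 22.9 and 26 CPM in saline vehicle and 13.3, 13.5, 10.3, 14 and 13.5 CPM in bleomycin vehicle lungs. It read 22.4, 24.3, 27.8, 24.6 and 23.9 CPM in saline saracatinib and 15.5, 20.6, 19.8, 20.3 and 20 CPM in bleomycin saracatinib lungs. The bleomycin vehicle libraries lay below all others, and the lowest, library 3 at 10.3 CPM, was the library in which 40 other genes of the module were highest. Pttg1 fell by 0.90 on the log2 scale with bleomycin (adjusted p = 1.13e-06), rose by 0.57 with saracatinib in bleomycin lungs (adjusted p = 0.00207), and fell by 0.35 with bleomycin in saracatinib-treated lungs (adjusted p = 0.0155). In each of these comparisons the groups did not overlap. The lowest bleomycin saracatinib library, library 1 at 15.5 CPM, was the one in which 37 other genes of the module were highest. No exon of another gene overlaps it. Markers of multiciliated airway cells, which do not divide, were also lower after bleomycin in vehicle lungs. These markers had a median log2 fold change of -1.03, and 6 of 6 were lower, where 20.3% of all genes were called lower. Their summed level was 444 to 1060 CPM in saline vehicle, 165 to 466 CPM in bleomycin vehicle and 361 to 453 CPM in bleomycin saracatinib lungs, with no marker at 0 in any library. Bleomycin lowered the same 6 in saracatinib-treated lungs (median -1.11), where 8.18% of all genes were called lower. Saracatinib raised 1 of the 6 in bleomycin lungs, where 5.31% of all genes were called higher. Ciliated markers were not alone in this. Mean summed markers of endothelium were 2623 CPM in saline vehicle, 1912 CPM in bleomycin vehicle and 2350 CPM in bleomycin saracatinib lungs. Those of striated muscle were 287, 79.4 and 159 CPM, while those of fibroblasts were 3655, 7276 and 3884 CPM. The part of any of these cell types in the Pttg1 result was not tested.

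Nek2 (ENSMUSG00000026622, chr1:191821444-191833050) encodes a kinase that separates centrosomes and also acts at cilia. It read 10.4, 11.1, 13.6, 7.91 and 21.5 CPM in saline vehicle, 11.4, 13.8, 15.3, 15.8 and 18 CPM in bleomycin vehicle and 10.4, 8.15, 10.3, 12.9 and 9.61 CPM in bleomycin saracatinib lungs. In saline saracatinib lungs it read 15, 11.8, 22.7, 8.59 and 30.7 CPM. The ranges overlapped in each of these comparisons, and Nek2 was called in none of them. Nek2 shares 6.6% of its exon bases with the antisense gene Gm38037, and the part of antisense reads in its counts was not tested.

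**Figure D4:**
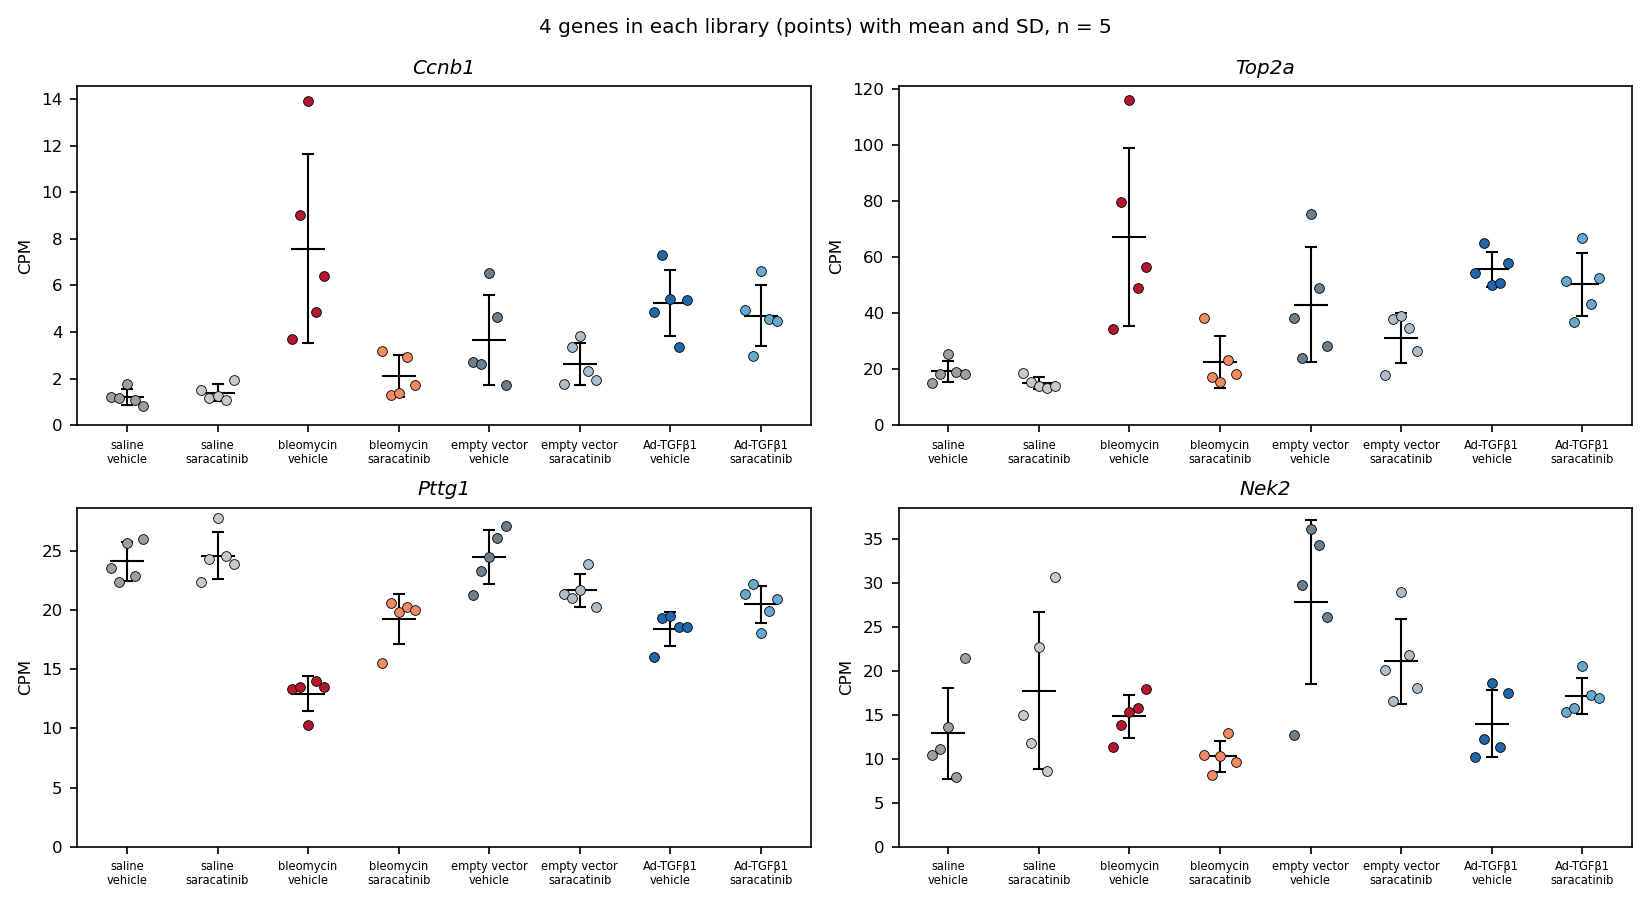
Levels of Ccnb1, Top2a, Pttg1 and Nek2 in CPM (linear axes from 0) in each of 40 libraries (points), with the mean and SD of each group of 5. Ccnb1 and Top2a are highest in bleomycin vehicle lungs, Pttg1 is lowest there (10.3 to 14 CPM), and Nek2 is highest in empty vector vehicle lungs (12.7 to 36.2 CPM).

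All 5 kinetochore and centromere genes rose with bleomycin, and all 5 fell with saracatinib in bleomycin lungs. Cenpe (ENSMUSG00000045328, chr3:135212537-135273611), the kinetochore motor that moves chromosomes to the spindle equator, read 4.47, 6.63, 8.1, 5.96 and 4.92 CPM in saline vehicle and 12.2, 25.4, 28.8, 17 and 17.1 CPM in bleomycin vehicle lungs. It read 7.02, 5.84, 6.78, 3.67 and 5.14 CPM in saline saracatinib and 11.7, 7.28, 6.86, 8.11 and 6.48 CPM in bleomycin saracatinib lungs. No overlap was seen in either comparison, with log2 fold changes of 1.74 ± 0.23 and -1.31 ± 0.23. Ndc80 (ENSMUSG00000024056, chr17:71496100-71526857), the microtubule-binding subunit of the kinetochore, read 2.61, 2.21, 2.47, 2.93 and 1.78 CPM in saline vehicle, 2.86, 7.55, 9.94, 3.54 and 5.41 CPM in bleomycin vehicle and 2.97, 2.6, 2.62, 3.06 and 2.58 CPM in bleomycin saracatinib lungs. Saline saracatinib libraries read 2.5, 1.25, 2.48, 2.42 and 1.54 CPM for Ndc80. Both comparisons overlapped, with changes of 1.29 ± 0.28 and -1.09 ± 0.27 (adjusted p = 0.0118). Its partner in the Ndc80 complex, Nuf2, changed by 2.18 ± 0.34 and -1.96 ± 0.33, Cenpf by 1.68 ± 0.26 and -1.54 ± 0.26, and the centromeric histone gene Cenpa by 0.85 ± 0.17 and -0.54 ± 0.16. Cenpa had the smallest change of the 5 in both comparisons.

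Birc5 (ENSMUSG00000017716, chr11:117849251-117855743), or survivin, and Incenp hold Aurkb in the chromosomal passenger complex, and both rose with bleomycin and fell with saracatinib. Birc5 read 1.94, 2.05, 2.86, 2.31 and 1.15 CPM in saline vehicle and 2.45, 7.78, 13.4, 5.92 and 5.62 CPM in bleomycin vehicle lungs. It read 2.26, 1.71, 1.92, 0.985 and 1.44 CPM in saline saracatinib and 3.58, 2.67, 1.31, 2.6 and 1.64 CPM in bleomycin saracatinib lungs. The groups overlapped in both comparisons (1.76 ± 0.35 and -1.57 ± 0.35). Incenp, with a higher per-length level in saline vehicle lungs (3.15 RPKM against 0.606 RPKM for Birc5), changed by 0.95 ± 0.18 and -0.67 ± 0.17.

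The 4 spindle motors rose by 1.37 to 1.68 with bleomycin and changed by -1.65 to -1.24 with saracatinib in bleomycin lungs, and all 4 were called each time. Kif11 (ENSMUSG00000012443, chr19:37376403-37421859), or Eg5, slides antiparallel microtubules to push spindle poles apart. It read 5.37, 6.63, 9.49, 6.76 and 7.85 CPM in saline vehicle and 9.41, 24.5, 32.2, 13.8 and 17.5 CPM in bleomycin vehicle lungs. It read 6.84, 5.76, 4.97, 5.19 and 6.79 CPM in saline saracatinib and 12.2, 5.48, 6.94, 8.19 and 6.56 CPM in bleomycin saracatinib lungs. Bleomycin vehicle library 1 fell within the range of both other groups for Kif11, and the changes were 1.44 ± 0.27 and -1.31 ± 0.26. Kif15, which supports Kif11 in bipolar spindles, changed by 1.37 ± 0.28 and -1.38 ± 0.28, the microtubule depolymerase Kif2c by 1.68 ± 0.25 and -1.65 ± 0.25, and the chromokinesin Kif4 by 1.56 ± 0.26 and -1.24 ± 0.25. Kif4 shares 15.1% of its exon bases with Pdzd11 on the opposite strand.

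Spindle assembly and microtubule-binding genes, 5 in number, all rose with bleomycin and all fell with saracatinib, with medians of 1.68 and -1.54. Tpx2 (ENSMUSG00000027469, chr2:152847964-152895321) activates Aurka and nucleates spindle microtubules. It read 3.21, 3.93, 5.4, 4.8 and 3.25 CPM in saline vehicle and 7.94, 19.4, 29.7, 11.9 and 14.2 CPM in bleomycin vehicle lungs. It read 4.09, 3.82, 4.29, 3.13 and 4.73 CPM in saline saracatinib and 7.47, 3.53, 3.32, 5.21 and 4.06 CPM in bleomycin saracatinib lungs. Neither comparison overlapped, and the changes were 2.01 ± 0.29 and -1.82 ± 0.28. The hyaluronan-mediated motility receptor gene Hmmr, whose product also binds spindle microtubules, changed by 2.10 ± 0.34 and -1.91 ± 0.33. Nusap1 changed by 1.68 ± 0.26 and -1.46 ± 0.26, Dlgap5 by 1.68 ± 0.26 and -1.25 ± 0.25, and Ckap2l by 1.33 ± 0.26 and -1.54 ± 0.26.

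Of the genes of the central spindle and cytokinesis, 6 of 6 rose with bleomycin and 6 of 6 fell with saracatinib. Prc1 (ENSMUSG00000038943, chr7:80294450-80316259), which bundles the central spindle, read 5.67, 7.04, 8.57, 6.49 and 4.4 CPM in saline vehicle and 11.5, 32.1, 38.8, 16.8 and 21.8 CPM in bleomycin vehicle lungs. It read 8.31, 5.84, 5.19, 4.3 and 5.45 CPM in saline saracatinib and 13.8, 8.51, 6.55, 9.57 and 6.48 CPM in bleomycin saracatinib lungs. The changes were 1.91 ± 0.29 and -1.43 ± 0.28, and Prc1 shares 11.1% of its exon bases with Rccd1 on the opposite strand. Anln (ENSMUSG00000036777, chr9:22332012-22389188), or anillin, the scaffold of the contractile ring, read 11.6, 12.6, 15.8, 10.4 and 11.7 CPM in saline vehicle and 16.9, 34.8, 53.4, 19.6 and 26.4 CPM in bleomycin vehicle lungs. It read 9.89, 11.3, 10.7, 9.94 and 13.8 CPM in saline saracatinib and 15.3, 12, 8.87, 11.6 and 8.52 CPM in bleomycin saracatinib lungs, below every bleomycin vehicle library. Anln changed by 1.28 ± 0.24 and -1.43 ± 0.24.

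Kif23 and Racgap1 form centralspindlin, and Ect2 acts with it in cytokinesis. Kif23 changed by 0.94 ± 0.15 with bleomycin and -1.15 ± 0.15 with saracatinib, and its adjusted p of 0.00154 was the smallest of the module in the second comparison. Racgap1 changed by 1.48 ± 0.24 and -1.36 ± 0.24, Ect2 by 1.42 ± 0.22 and -1.05 ± 0.21, and the mitotic kinesin Kif20a by 1.85 ± 0.31 and -1.47 ± 0.30. Kif20a shares 29.3% of its exon bases with Cdc23, a subunit of the anaphase-promoting complex on the opposite strand.

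Top2a, Mki67 and Foxm1 all rose and all fell. Top2a (ENSMUSG00000020914, chr11:98992943-99024189), the topoisomerase that untangles sister chromatids, read 15.1, 18.4, 25.5, 19 and 18.2 CPM in saline vehicle and 34.4, 79.7, 116, 49 and 56.5 CPM in bleomycin vehicle lungs. It read 18.6, 15.3, 13.9, 13.2 and 14.1 CPM in saline saracatinib and 38.2, 17.3, 15.4, 23.3 and 18.3 CPM in bleomycin saracatinib lungs, and vehicle library 1 lay below saracatinib library 1. Mki67 (ENSMUSG00000031004, chr7:135689784-135716361), which encodes the Ki-67 protein used in tissue to mark cycling cells, read 29.6, 37.3, 46.9, 35.7 and 34.3 CPM in saline vehicle and 68.5, 149.6, 212, 94.7 and 115 CPM in bleomycin vehicle lungs. It read 38.7, 28.3, 31.8, 24.3 and 25.7 CPM in saline saracatinib and 77.5, 33.2, 32.2, 47.8 and 33 CPM in bleomycin saracatinib lungs. Top2a changed by 1.80 ± 0.27 and -1.58 ± 0.27, and Mki67 by 1.80 ± 0.27 and -1.52 ± 0.27.

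Foxm1 (ENSMUSG00000001517, chr6:128362967-128376146), a transcription factor that drives G2 and M genes together with the MuvB complex, moved less. It read 7.31, 7.12, 7.1, 6.49 and 7.43 CPM in saline vehicle and 8.43, 16.9, 29.8, 11 and 15.6 CPM in bleomycin vehicle lungs. It read 6.41, 5.06, 5.53, 5.91 and 5.45 CPM in saline saracatinib and 11.7, 7.64, 5.63, 7.73 and 5.78 CPM in bleomycin saracatinib lungs. Its changes were 1.21 ± 0.25 and -1.09 ± 0.25, with no overlap in the first comparison. Foxm1 shares 2.5% of its exon bases with Tex52 on the same strand.

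Few genes of the module were called for bleomycin in saracatinib-treated lungs. Bleomycin against saline under saracatinib raised 1 of the 42 genes, Cenpa (0.52 ± 0.17, adjusted p = 0.045), and lowered Pttg1, where 7.79% of all genes were called higher and 8.18% lower. The median log2 fold change was 0.44, and values ran from -0.78 ± 0.28 for Nek2 (adjusted p = 0.0668) to 0.79 ± 0.27 for Aurka (adjusted p = 0.0513). An unadjusted p under 0.05 was reached by 12 genes. The Cenpa call was lost when any of 8 single libraries was left out, and the Pttg1 call was kept throughout. Without the low-count filter, or with limma voom, Pttg1 alone was called, and DESeq2 called 5 genes.

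Set against saline vehicle lungs, bleomycin saracatinib lungs had Pttg1 lower (-0.33 ± 0.09, adjusted p = 0.0302) and no other gene called, where 5.83% of all genes were called higher and 3.39% lower. The median was 0.23, from -0.51 ± 0.35 for Bub1 to 0.78 ± 0.37 for Ccnb1 (adjusted p = 0.392 and 0.199). Without the low-count filter, or without any of 4 single libraries, Pttg1 was not called either. Saracatinib in saline lungs changed 0 of the 42 genes by edgeR, with 0 at an unadjusted p under 0.05 and 0 called by DESeq2 or limma voom, where 1 of 18846 genes (0.00531%) was called. The median was -0.22, from -0.70 ± 0.35 for Aurkb to 0.46 ± 0.28 for Nek2, and 34 of the 42 values were negative. For Aurkb and Foxm1 all saracatinib libraries lay below all vehicle libraries, where 0.944% of all genes did so.

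The interaction, the bleomycin effect under saracatinib minus that under vehicle, was called for 4 genes: Cdk1 (-2.01 ± 0.42, adjusted p = 0.0347), Tpx2 (-1.77 ± 0.42, 0.0446) and Kif23 (-0.93 ± 0.21, 0.04) were lower and Pttg1 (0.55 ± 0.13, 0.0467) was higher. In that test 0.446% of all genes were called lower and 0.61% higher, 1.06% in all. The median was -1.13, Ccnb1 had the lowest value at -2.04 ± 0.51 (adjusted p = 0.0557), and 39 genes had an unadjusted p under 0.05. The number called was 18 without bleomycin vehicle library 1, 16 without bleomycin saracatinib library 1, 17 with DESeq2, and 0 without any of several single libraries, saline vehicle 1, 2, 4 and 5 and bleomycin vehicle 2 among them. The shares of all genes called in those fits are not given here.

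Members that move together can be set beside their promoters. RefSeq promoter windows on GRCm38.p6, 250 bases before to 50 after the transcription start, were matched by symbol for 35 of the 42 genes, giving 37 windows. G2 and M genes are known for CCAAT boxes, which NF-Y binds, and for the cell-cycle homology region (CHR), which MuvB complexes bind. The CCAAT box was searched by those letters. The CHR was searched as TTTGAA. The variant TTCGAA was counted as a CHR too. E2F sites were searched as TTTGGCGC. The variant TTTCCCGC was counted with them. Each was sought on both strands. None of these strings contains another, though matches may overlap. Of the 37 windows, 73% held a CCAAT (27 windows, 95% Wilson interval 57 to 84.6%), against 37.4% of all 32851 windows of the same length. A CHR was in 75.7% (28 windows, 59.9 to 86.6%) against 19.2%, and both were in 64.9% (24 windows, 48.8 to 78.2%) against 7.52%. Some genes gave more than 1 window, and a match shared by such windows was counted in each. The intervals treat the windows as independent, which they are not fully. At least 2 CCAAT matches were in 48.6% against 11.7%, and an E2F 8-mer in 2.7% (1 window) against 1.56%. Birc5, Mad2l1, Melk, Nuf2, Nusap1 and Pttg1 held neither a CCAAT nor a CHR in their windows, and of these Nuf2 was among the genes that rose and fell most.

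Promoter stretches of 6 genes are shown to let the letters be read in place, those with a CHR in the stretch being taken first, with capitals marking CCAAT and CHR letters on either strand. Each is the 150 bases nearest the RefSeq start that no GENCODE exon covers, written 5′ to 3′ on the gene's own strand from GRCm38.p6.
Cdk1: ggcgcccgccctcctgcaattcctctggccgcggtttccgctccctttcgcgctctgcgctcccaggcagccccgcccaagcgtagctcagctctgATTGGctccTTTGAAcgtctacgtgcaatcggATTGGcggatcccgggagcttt
Cdc20: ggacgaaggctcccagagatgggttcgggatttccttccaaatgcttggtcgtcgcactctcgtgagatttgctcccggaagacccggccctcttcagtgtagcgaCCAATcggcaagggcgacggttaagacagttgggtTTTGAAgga
Kif11: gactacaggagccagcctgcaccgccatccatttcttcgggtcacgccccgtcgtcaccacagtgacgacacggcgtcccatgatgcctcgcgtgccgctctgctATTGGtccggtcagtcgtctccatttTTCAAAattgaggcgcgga
Top2a: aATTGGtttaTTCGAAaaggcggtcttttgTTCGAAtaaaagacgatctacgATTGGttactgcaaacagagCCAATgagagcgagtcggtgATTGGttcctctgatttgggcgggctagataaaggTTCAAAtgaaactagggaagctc
Mki67: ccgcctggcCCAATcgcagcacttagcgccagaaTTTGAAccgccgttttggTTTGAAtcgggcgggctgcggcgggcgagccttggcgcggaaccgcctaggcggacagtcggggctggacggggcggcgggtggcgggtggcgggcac
Ccnb1: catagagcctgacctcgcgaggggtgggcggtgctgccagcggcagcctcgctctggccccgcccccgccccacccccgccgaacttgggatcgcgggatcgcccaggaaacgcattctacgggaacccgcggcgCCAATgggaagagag
The stretches lie at chr10:69352939-69353088 (Cdk1), chr4:118437353-118437502 (Cdc20), chr19:37376232-37376381 (Kif11), chr11:99024190-99024339 (Top2a), chr7:135716380-135716529 (Mki67) and chr13:100786571-100786720 (Ccnb1). All but that of Kif11 are on the minus strand. In the stretch of Cdk1 a CHR begins 71 bases before the RefSeq start, between CCAAT letters at 80 and 48 bases before it. In that of Cdc20 a CCAAT begins at 53 and a CHR at 18 bases before the start, and in that of Kif11 at 45 and 19. The Top2a stretch holds 4 CCAAT and 3 CHR matches, the CHR nearest the start at 23 bases. The Mki67 stretch holds 1 CCAAT and 2 CHR matches, and Ccnb1, the gene that rose most, holds a CCAAT at 99 bases and no CHR in its stretch. Further matches before the start lie outside the stretches. They are a CHR at 15 and a CCAAT at 208 bases in Cdk1, a CCAAT at 8 in Cdc20 and at 67 in Ccnb1, CCAAT letters at 166 and 188 in Mki67, and CCAAT letters at 189 and 227 with a CHR at 179 in Top2a.

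Few genes of the module were called after Ad-TGFβ1. In vehicle lungs 0 of the 42 genes rose and 2 fell, where 11.5% of all genes were called higher and 14.3% lower among 18834. The 2 that fell were Pttg1 (-0.41 ± 0.08, adjusted p = 0.00136) and Nek2 (-0.99 ± 0.23, adjusted p = 0.00418), and the highest value was 0.62 ± 0.31 for Ube2c (adjusted p = 0.147). The median was 0.27, and 4 genes had an unadjusted p under 0.05. Without empty vector vehicle library 3 the median was 0.57, and 13 genes were called higher. DESeq2 called 3 genes, 1 of them higher, and limma voom the 2 that fell. For these alternatives the shares of all genes called are not given here.

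Ccnb1 read 2.73, 2.61, 6.53, 4.66 and 1.74 CPM in empty vector vehicle and 4.85, 7.31, 5.41, 3.37 and 5.36 CPM in Ad-TGFβ1 vehicle lungs. With saracatinib Ccnb1 read 1.75, 3.34, 3.83, 2.33 and 1.94 CPM after empty vector and 4.93, 2.96, 6.62, 4.56 and 4.46 CPM after Ad-TGFβ1. The ranges of the cyclin overlapped in both pairs, with Ad-TGFβ1 at 0.52 ± 0.30 in vehicle lungs. Cdk1 read 5.79, 3.24, 9.76, 6.08 and 4.29 CPM in empty vector vehicle and 6.68, 8.83, 7.15, 5.55 and 6.94 CPM in Ad-TGFβ1 vehicle lungs. With saracatinib Cdk1 read 2.75, 5.1, 5.05, 4.45 and 3.5 CPM after empty vector and 5.83, 4.53, 9.97, 5.98 and 6.03 CPM after Ad-TGFβ1. Cdk1 was widest in empty vector vehicle lungs and stood at 0.26 ± 0.25. Plk1 read 3.97, 3.55, 8.23, 4.66 and 3.48 CPM in empty vector vehicle and 4.85, 6.12, 4.62, 4.36 and 4.6 CPM in Ad-TGFβ1 vehicle lungs. With saracatinib Plk1 read 3, 5.01, 4.95, 3.34 and 3.89 CPM after empty vector and 4.84, 4.24, 6.28, 4.33 and 6.28 CPM after Ad-TGFβ1. The third library of empty vector vehicle stood apart for Plk1, whose value was 0.03 ± 0.22. Aurkb read 3.81, 3.45, 7.72, 5.27 and 2.56 CPM in empty vector vehicle and 4.26, 5.69, 4.97, 4.66 and 4.98 CPM in Ad-TGFβ1 vehicle lungs. With saracatinib Aurkb read 1.81, 4.22, 4.02, 3.14 and 2.14 CPM after empty vector and 6.55, 2.46, 6.79, 5.03 and 4.88 CPM after Ad-TGFβ1. Aurkb overlapped in the same way (0.10 ± 0.29), and none of these 4 genes was called.

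Among the checkpoint and anaphase genes, Bub1b read 11.7, 8.78, 16.1, 13 and 8.69 CPM in empty vector vehicle and 13.3, 17.9, 13, 12.4 and 13.5 CPM in Ad-TGFβ1 vehicle lungs. With saracatinib Bub1b read 7.82, 11.4, 12.4, 7.8 and 7.68 CPM after empty vector and 14.6, 10.8, 16.5, 12.6 and 14.1 CPM after Ad-TGFβ1. The 5 Ad-TGFβ1 vehicle libraries of Bub1b lay inside or above the empty vector range (0.26 ± 0.18). Mad2l1 read 10.3, 9.31, 14.9, 10.4 and 7.16 CPM in empty vector vehicle and 12.4, 12.9, 10.2, 10.3 and 12.2 CPM in Ad-TGFβ1 vehicle lungs. With saracatinib Mad2l1 read 6.25, 10.1, 8.78, 8.2 and 7.09 CPM after empty vector and 10.5, 9.75, 10.9, 11.9 and 10.4 CPM after Ad-TGFβ1. Mad2l1 overlapped (0.15 ± 0.15). Cdc20 read 4.47, 3.45, 10.9, 7.3 and 4.19 CPM in empty vector vehicle and 6.74, 8.33, 6.63, 7.14 and 7.77 CPM in Ad-TGFβ1 vehicle lungs. With saracatinib Cdc20 read 3.88, 4.48, 5.33, 3.44 and 3.79 CPM after empty vector and 6.99, 3.64, 9.63, 6.45 and 5.21 CPM after Ad-TGFβ1. For Cdc20 the highest library was again empty vector vehicle 3 (0.26 ± 0.26). None of these 3 was called.

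Of the kinetochore and passenger genes, Cenpe read 8.69, 7.95, 22.3, 13.7 and 9.1 CPM in empty vector vehicle and 15.4, 15.5, 13.3, 14.5 and 14.9 CPM in Ad-TGFβ1 vehicle lungs. With saracatinib Cenpe read 6, 11.1, 10.9, 12 and 8.06 CPM after empty vector and 17.2, 7.39, 19.4, 12.2 and 16 CPM after Ad-TGFβ1. The Ad-TGFβ1 vehicle libraries of Cenpe spread less than the empty vector vehicle libraries (0.25 ± 0.27). Ndc80 read 3.72, 3.14, 7.13, 4.26 and 2.25 CPM in empty vector vehicle and 5.32, 7.05, 4.62, 3.87 and 5.51 CPM in Ad-TGFβ1 vehicle lungs. With saracatinib Ndc80 read 1.81, 4.48, 4.39, 2.73 and 3.01 CPM after empty vector and 4.75, 3.94, 6.62, 4.8 and 5.46 CPM after Ad-TGFβ1. Ndc80 overlapped (0.36 ± 0.27). Birc5 read 3.14, 2.61, 7.64, 5.27 and 2.35 CPM in empty vector vehicle and 4.91, 5.69, 4.71, 4.86 and 5.21 CPM in Ad-TGFβ1 vehicle lungs. With saracatinib Birc5 read 2.63, 3.52, 3.74, 2.13 and 2.62 CPM after empty vector and 5.56, 2.76, 5.61, 3.85 and 5.12 CPM after Ad-TGFβ1. Birc5 overlapped as well (0.26 ± 0.27), and none of the 3 was called.

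Among the genes of the spindle and cytokinesis, Kif11 read 10.9, 9.1, 24.3, 16.6 and 7.98 CPM in empty vector vehicle and 16.4, 22, 18.1, 16.2 and 18.4 CPM in Ad-TGFβ1 vehicle lungs. With saracatinib Kif11 read 7.82, 14.2, 11.9, 11.3 and 9.72 CPM after empty vector and 16.2, 10.9, 24.5, 13.3 and 14.3 CPM after Ad-TGFβ1. Kif11 stood at 0.40 ± 0.26 for Ad-TGFβ1 in vehicle lungs. Tpx2 read 7.03, 5.02, 15.3, 9.33 and 5.73 CPM in empty vector vehicle and 10.5, 11.6, 8.72, 10 and 11.8 CPM in Ad-TGFβ1 vehicle lungs. With saracatinib Tpx2 read 5.38, 7.73, 8.32, 7.09 and 5.54 CPM after empty vector and 10.4, 6.11, 13.5, 7.79 and 10.8 CPM after Ad-TGFβ1. Tpx2 stood at 0.30 ± 0.25. Prc1 read 9.51, 7.01, 20.4, 11.5 and 7.46 CPM in empty vector vehicle and 15.8, 19.9, 13.1, 13.9 and 14.4 CPM in Ad-TGFβ1 vehicle lungs. With saracatinib Prc1 read 6.32, 10.1, 9.16, 9.92 and 7.38 CPM after empty vector and 12.8, 11.7, 20, 12.8 and 15.4 CPM after Ad-TGFβ1. For Prc1 (0.46 ± 0.24) the vehicle groups overlapped, while under saracatinib all Ad-TGFβ1 libraries lay above all empty vector libraries. Anln read 11.6, 11, 22.4, 18 and 14.4 CPM in empty vector vehicle and 14.2, 15.5, 13.2, 16.4 and 17.1 CPM in Ad-TGFβ1 vehicle lungs. With saracatinib Anln read 10.8, 14, 16.3, 14.3 and 13.3 CPM after empty vector and 14.1, 13.6, 18.9, 15 and 14.3 CPM after Ad-TGFβ1. Anln had the value nearest 0 of these 4 (-0.02 ± 0.16), and none was called.

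Of the chromatin and transcription genes, Top2a read 38.4, 24, 75.4, 49.1 and 28.3 CPM in empty vector vehicle and 54.3, 65.1, 50.1, 50.8 and 58 CPM in Ad-TGFβ1 vehicle lungs. With saracatinib Top2a read 18.1, 38.1, 38.9, 34.7 and 26.4 CPM after empty vector and 51.6, 36.9, 66.9, 43.3 and 52.7 CPM after Ad-TGFβ1. Top2a stood at 0.37 ± 0.25. Mki67 read 67.2, 40, 143, 89.3 and 39.1 CPM in empty vector vehicle and 90.2, 118, 86.5, 101 and 98.4 CPM in Ad-TGFβ1 vehicle lungs. With saracatinib Mki67 read 32.7, 72.9, 79.5, 56.7 and 51.9 CPM after empty vector and 94.3, 59.5, 121, 74.6 and 91.6 CPM after Ad-TGFβ1. Mki67 stood at 0.38 ± 0.29. Foxm1 read 7.86, 5.54, 15.3, 10.6 and 5.42 CPM in empty vector vehicle and 12.8, 12.9, 11.3, 9.92 and 11.4 CPM in Ad-TGFβ1 vehicle lungs. With saracatinib Foxm1 read 5, 7.56, 7.57, 5.97 and 6.02 CPM after empty vector and 10.6, 9.06, 14.1, 10.1 and 9.09 CPM after Ad-TGFβ1. Foxm1 (0.38 ± 0.22) overlapped in vehicle lungs and, like Prc1, did not overlap under saracatinib, as was so for 6 of the 42 genes, where 2.79% of all genes lay wholly above. None of the 3 was called in vehicle lungs.

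Pttg1 read 21.3, 23.3, 24.5, 26.1 and 27.1 CPM in empty vector vehicle and 16, 19.3, 19.5, 18.6 and 18.6 CPM in Ad-TGFβ1 vehicle lungs, with no overlap. With saracatinib it read 21.4, 21, 21.7, 23.9 and 20.3 CPM after empty vector and 21.4, 22.2, 18.1, 19.9 and 20.9 CPM after Ad-TGFβ1. Nek2 read 12.7, 29.8, 36.2, 34.3 and 26.1 CPM in empty vector vehicle and 10.2, 12.3, 18.6, 11.3 and 17.5 CPM in Ad-TGFβ1 vehicle lungs, where empty vector library 1 at 12.7 CPM fell within the Ad-TGFβ1 range. With saracatinib Nek2 read 20.1, 16.6, 29, 21.8 and 18.1 CPM and 15.3, 15.8, 20.6, 17.3 and 16.9 CPM. Ciliated markers were lower in Ad-TGFβ1 vehicle lungs too, 6 of 6 with a median of -1.12, where 14.3% of all genes were called lower. Their summed levels were 509 to 1066 CPM in empty vector vehicle and 362 to 543 CPM in Ad-TGFβ1 vehicle lungs. Mean summed markers of striated muscle were also lower (942 against 599 CPM in the same order), while those of endothelium were higher (2129 against 2403 CPM). The part of any of these cell types in these 2 results was not tested.

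Under saracatinib, Ad-TGFβ1 against empty vector called 0 of the 42 genes by edgeR, where 2.21% of all genes were called higher and 0.361% lower. The median was 0.55, from -0.29 ± 0.23 for Nek2 to 0.94 ± 0.27 for Melk, and 23 genes had an unadjusted p under 0.05. DESeq2 and limma voom each called 7 higher, 3 were called when only the compared groups were fitted, and 8 without the 3 libraries farthest from their groups. The shares of all genes called under these settings are not given here. Saracatinib in Ad-TGFβ1 lungs called 0 of 42, with 0 at an unadjusted p under 0.05 and 0 by DESeq2 and limma voom, where 0.0478% of all genes were called higher and 0.0425% lower (0.0903% in all). The median was -0.11, from -0.52 ± 0.28 for Nuf2 to 0.30 ± 0.23 for Nek2.

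Saracatinib in empty vector lungs also called 0 of 42 (7 at an unadjusted p under 0.05, 0 by DESeq2 and limma voom), where 0.00531% of all genes were called. The median was -0.37, from -0.81 ± 0.29 for Nuf2 to -0.11 ± 0.21 for Bub1. Ad-TGFβ1 saracatinib against empty vector vehicle lungs called Pttg1 (-0.25 ± 0.08, adjusted p = 0.0367) and Nek2 (-0.69 ± 0.23, 0.047) lower, where 8.25% of all genes were called lower and 5.78% higher, with a median of 0.19 and Kif15 highest at 0.43 ± 0.20. Both calls were lost without the low-count filter or when only the compared groups were fitted. The interaction of this model called 0 of 42 by edgeR, DESeq2 and limma voom (3 at an unadjusted p under 0.05 by edgeR), where 0% of all genes were called, with a median of 0.29, from -0.16 ± 0.29 for Bub1 to 0.89 ± 0.38 for Ckap2l.

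**Figure D5:**
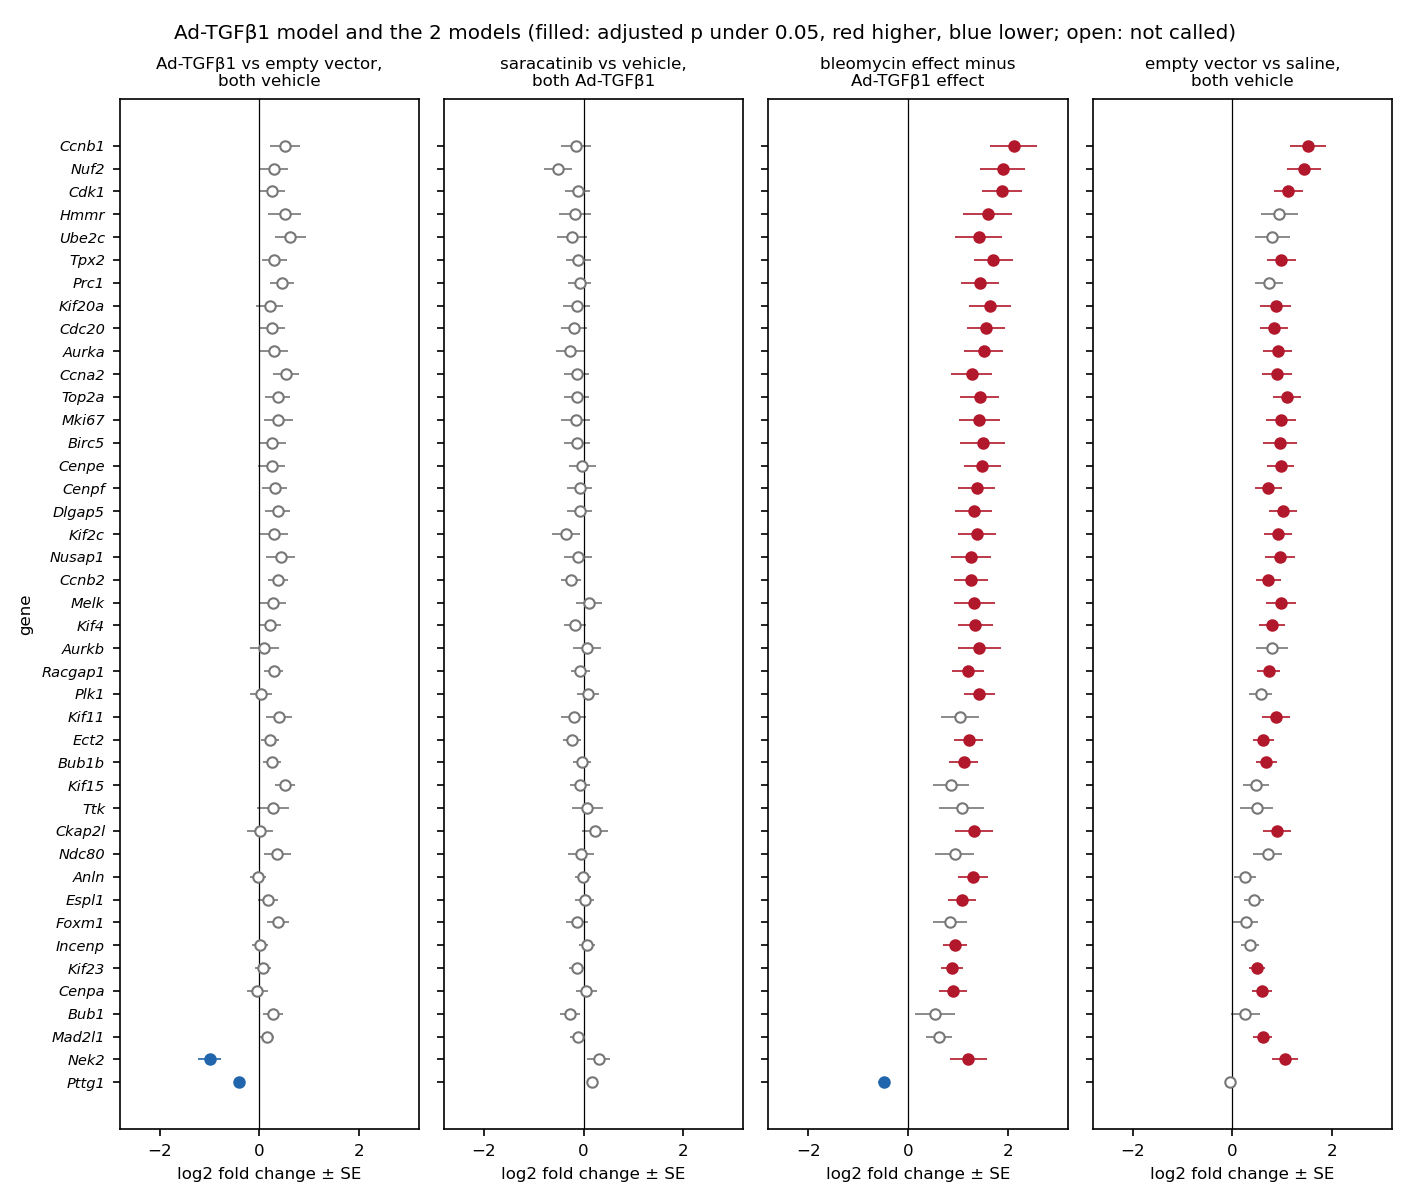
Log2 fold change with its SE for each of the 42 genes (rows, ordered by the bleomycin effect) in 4 comparisons: Ad-TGFβ1 against empty vector, saracatinib in Ad-TGFβ1 lungs, the difference of the 2 injury effects, and empty vector against saline. Filled red points are called higher, filled blue lower and open grey not called; the second panel has 0 genes called, and the third has 34 called higher and Pttg1 lower.

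The injury effect differed between the models for most of the module. In a fit of all 40 libraries, the bleomycin effect minus the Ad-TGFβ1 effect was called higher for 34 of the 42 genes and lower for Pttg1 (-0.48 ± 0.12), where 8.64% of 19529 genes were called higher and 6.47% lower. The median was 1.32, and Ccnb1 had the largest difference (2.12 ± 0.47). Bub1 (0.54 ± 0.40), Mad2l1 (0.62 ± 0.27), Ttk (1.08 ± 0.45), Kif11 (1.05 ± 0.38), Kif15 (0.87 ± 0.36), Ndc80 (0.94 ± 0.39) and Foxm1 (0.84 ± 0.34) were not called, with adjusted p from 0.0597 to 0.403. Nek2 was called higher (1.21 ± 0.37), with a fall after Ad-TGFβ1 and no call after bleomycin. Without empty vector vehicle library 3, 22 genes were called.

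The control groups of the 2 models themselves differed. Empty vector vehicle lungs had 28 of the 42 genes higher than saline vehicle lungs and 0 lower. Of all genes, 13.9% were called higher and 12.3% lower. The median of the 42 genes was 0.80. Ccnb1 differed most (1.52 ± 0.36) and Pttg1 had the lowest value (-0.05 ± 0.08), and for 3 genes, Bub1b, Nuf2 and Melk, the groups did not overlap with all 40 libraries scaled together, where 6.06% of all genes lay wholly above. By CPM scaled within each model, 9 genes lay wholly above, those 3 with Cdk1, Plk1, Kif23, Kif4, Ect2 and Racgap1, where 8.79% of all genes did. Without empty vector vehicle library 3, 5 genes were called, and without library 4, 14, with the shares of all genes in those fits not given here. Markers of T cells (8 of 8), B cells (7 of 7) and plasma cells (4 of 5) were also higher in empty vector vehicle lungs, with summed levels of 35.7 to 110 CPM against 27.4 to 37.5 CPM for T cells and 126 to 309 CPM against 38 to 93.1 CPM for B cells. Plasma cell markers summed to 248 to 1051 CPM against 145 to 174 CPM, with 1 of the 5 at 0 in some libraries. Empty vector vehicle library 3, the highest for 40 mitotic genes, had the highest T cell (110 CPM) and plasma cell (1051 CPM) sums of its group. The B cell sum of that library is not given here. Lymphoid lists were not alone in being higher. Mean summed markers of striated muscle were 942 CPM in empty vector vehicle against 287 CPM in saline vehicle lungs, and those of megakaryocytes 71.2 against 29 CPM. Delivery route, vector and model cannot be told apart in this comparison, and the part of lymphoid or other cells was not tested.

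The saracatinib effect in injured lungs was lower in the bleomycin model for 17 of the 42 genes and higher for Pttg1 (0.42 ± 0.12), where 1.41% of all genes were called lower and 1.05% higher. The median difference was -1.29, and Ckap2l had the lowest value (-1.76 ± 0.38, adjusted p = 0.0132), with Hmmr (-1.73 ± 0.48) and Tpx2 (-1.71 ± 0.39) next. Cyclin B1 and its kinase were among the 17, at -1.69 ± 0.45 and -1.54 ± 0.39. An unadjusted p under 0.05 was found for 41 genes. The count moved with single libraries, to 3 without bleomycin vehicle library 3, 35 without bleomycin vehicle library 1 and 33 without bleomycin saracatinib library 1.

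Other cell-cycle lists are given by their counts, beside the 20.6% of all genes called higher and 20.3% called lower with bleomycin in vehicle lungs. There, 23 of 33 other kinetochore and centromere genes rose and 1 fell (median 1.08), led by Spc25 (1.75 ± 0.37), a subunit of the Ndc80 complex, while Zw10 fell (-0.31 ± 0.05). Other genes of the spindle, midbody and centriole rose in 22 of 28 cases with 0 falls (median 1.36), led by the abscission gene Cep55 (1.98 ± 0.31). Replication and S-phase genes rose in 23 of 27 cases (median 0.73), led by Gins2 of the replicative helicase (2.34 ± 0.27). Condensin and cohesin genes split, with 9 of 19 higher, led by the condensin subunit Ncapg (1.63 ± 0.30), and Stag2 lower (-0.23 ± 0.09; median 0.16). The anaphase-promoting complex had 3 of 17 higher, led by its inhibitor Fbxo5 (0.50 ± 0.15), and Anapc5 lower (-0.28 ± 0.06; median 0.03).

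Upstream of mitosis, 7 of 11 G1 cyclin, CDK and Cdc25 genes rose with bleomycin (median 0.36), led by cyclin E1, Ccne1 (1.94 ± 0.42). Of 14 genes that restrain the cycle, 7 rose, led by the CDK inhibitor gene Cdkn2a (2.52 ± 0.43), and 2 fell, Cdkn1c (-0.80 ± 0.16) and Rb1 (-0.26 ± 0.10). Of 19 genes of the DREAM complex, E2F and NF-Y, 8 rose, led by E2f8 (1.44 ± 0.25), and E2f6 fell (-0.34 ± 0.08).

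With saracatinib in bleomycin lungs, where 8.71% of all genes were called lower and 5.31% higher, falls were called for 16 of 33 other kinetochore genes (Ska3 lowest at -1.71 ± 0.29), 22 of 28 other spindle genes (Pbk at -1.82 ± 0.37) and 19 of 27 replication genes (the ribonucleotide reductase gene Rrm2 at -1.55 ± 0.33). They were called for 7 of 19 condensin and cohesin genes (Cdca5, or sororin, at -1.73 ± 0.31), 3 of 11 G1 genes (Cdc25c at -1.74 ± 0.31), 2 of 14 brakes (Cdkn2a at -1.17 ± 0.37) and 5 of 19 DREAM, E2F and NF-Y genes (E2f7 at -1.17 ± 0.28). The anaphase-promoting complex had 0 of 17 called, and none of these 8 lists had a gene called higher. After Ad-TGFβ1 in vehicle lungs, where 11.5% of all genes were called higher and 14.3% lower, the same lists gave 1 higher and 2 lower of 34 kinetochore genes, 0 and 1 of 28 spindle genes, and 2 and 1 of 27 replication genes. They gave 2 and 0 of 19 condensin and cohesin genes, 1 and 1 of 17 of the anaphase-promoting complex, 4 and 0 of 11 G1 genes, 4 and 1 of 14 brakes, and 3 and 0 of 19 DREAM, E2F and NF-Y genes. Cdkn2a rose there as well (2.12 ± 0.34).

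Markers of monocyte-derived macrophages were measured beside the module. With bleomycin 9 of 9 rose (median 2.02), where 20.6% of all genes were called higher. With saracatinib in bleomycin lungs 5 of 9 fell (median -0.65), where 8.71% of all genes were called lower. None of these markers was at 0 in any library. Their summed level was 358 to 393 CPM in saline vehicle, 1079.6 to 1434 CPM in bleomycin vehicle and 507 to 1204 CPM in bleomycin saracatinib lungs. All 9 were called higher in bleomycin saracatinib against saline vehicle lungs (median 1.07), where 5.83% of all genes were. Of the fibroblast markers, 4 of 8 were higher and 2 lower with bleomycin, where 20.6% and 20.3% of all genes were. They summed to 3395 to 4036 CPM in saline vehicle, 5709 to 11353 CPM in bleomycin vehicle and 3236 to 4667 CPM in bleomycin saracatinib lungs. Bleomycin vehicle library 3, highest for 40 mitotic genes, also had the highest fibroblast sum, at 11353 CPM. The parts of macrophages and fibroblasts in the mitotic results were not tested.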

How the data were processed

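Lung RNA of 40 mice (8 groups of 5) was sequenced with a stranded, ribosomal RNA-depleted kit, per the labels' protocols. The authors deposited raw read counts per gene for each model. The submitters' processing notes name STAR 2.6.1d, Picard, Subread 1.6.3 with featureCounts, and edgeR, with the builds mm9 and GRCm38; whether strand was used in counting is not given there. Libraries held 8812233 to 17336972 counts. Symbols came from a table of Ensembl names. Each model was fitted by edgeR 4.0.16 (R 4.3.3) on 20 libraries, and contrasts between models on all 40, with filterByExpr, TMM scaling, the quasi-likelihood test and Benjamini-Hochberg adjustment over all genes tested; genes under 0.05 were called. The SE was the log2 fold change over the square root of F. CPM used TMM library sizes, and RPKM the union of GENCODE M21 exons. Alternatives were no low-count filter, DESeq2 1.42.0 and its size factors, limma 3.58.1 voom with quality weights, only the groups compared, and each library left out. Shares of all genes called are given for the main fit only. Leaving out, in each model, the 3 libraries most distant from their own group by principal components was added after seeing the data. The edgeR steps were tested on simulated data. P-values measure the spread between these mice. The members and lists were chosen with earlier results of these data known. Every library is printed for 18 members fixed by role, together with Nek2; the members with the highest and lowest change in each comparison, and those called or not called where there were 10 or fewer, are also named, with the leading and opposing called gene of each other list. Aurkb, Incenp, Kif20a, Foxm1, Ccna2, Dlgap5 and Tpx2 had no promoter entry.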

Additional observations from a re-analysis of the deposited data

Results flagged for a closer look

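In 11 of 152 groups of 5 libraries (18 members fixed by role and the summed level of the module, in 8 groups), 1 library lay apart by Dixon's criterion of 0.71, where chance gives about 1 group in 20. The high libraries were Cdk1 at 5.71 CPM in bleomycin saracatinib and 9.97 CPM in Ad-TGFβ1 saracatinib lungs, and Plk1 at 8.23 CPM in empty vector vehicle and 6.12 CPM in Ad-TGFβ1 vehicle lungs. Aurkb reached 14.2 CPM in bleomycin vehicle, Bub1b 17.9 CPM in Ad-TGFβ1 vehicle, Mad2l1 7.83 CPM in saline vehicle and Anln 18.9 CPM in Ad-TGFβ1 saracatinib lungs. Pttg1 had the low libraries, at 10.3 CPM in bleomycin vehicle, 15.5 CPM in bleomycin saracatinib and 16.0 CPM in Ad-TGFβ1 vehicle lungs.

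Effects differed between groups, by a test of the difference itself, for 4 of the 42 genes in the interaction of bleomycin and saracatinib. They differed for 35 genes between the bleomycin and Ad-TGFβ1 injury effects, and for 18 genes between the saracatinib effects in the 2 injured lungs.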

How the results depend on the processing

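Across all alternatives, no gene that was called in the main fit or in the alternative had opposite signs in the 2. Sign changes of genes called in neither were not counted. Counts of called genes stayed within 1.5 times for bleomycin in vehicle lungs (40 to 41 when 1 library was left out) and saracatinib in bleomycin lungs (37 to 41). They were 0 under every setting for saracatinib in saline, Ad-TGFβ1 and empty vector lungs. For bleomycin under saracatinib (2 genes), 1 was called without the low-count filter, 5 by DESeq2, 1 by limma voom and 1 to 3 with a library left out. For bleomycin with saracatinib against saline vehicle (1 gene), the count was 0 without the filter and 0 to 1 with a library left out. The bleomycin interaction (4 genes) gave 17 by DESeq2, 0 without the 3 farthest libraries of each model and 0 to 18 with a library left out. Ad-TGFβ1 in vehicle lungs (2 genes) gave 2 to 15 with a library left out. Ad-TGFβ1 under saracatinib (0 genes) gave 7 by DESeq2, 7 by limma voom, 3 with only the groups compared, 8 without the farthest libraries and 0 to 2 with a library left out. Ad-TGFβ1 with saracatinib against empty vector vehicle (2 genes) gave 0 without the filter, 0 with only the groups compared and 0 to 2 with a library left out, and the interaction of that model (0 genes) gave 0 to 2. The injury difference (35 genes) ranged from 22 to 39 with a library left out. The saracatinib difference (18 genes) gave 8 without the filter, 28 by DESeq2, 9 with only the groups compared, 5 without the farthest libraries and 3 to 35 with a library left out. Empty vector against saline (28 genes) gave 14 with only the groups compared and 5 to 33 with a library left out. The cause was not tested. Shares of all genes called under these settings are not given, so a shift in calls over all genes cannot be told from one in the module. The share of member promoters with a CHR was 35.1% in the 150 bases before the start and with both motifs 29.7%, against 9.7% and 2.43% of all promoters. No paired analysis was possible because the animal numbers in the labels are not shared between the groups of a model. Low counts limit the rarest members: 7 of 1680 counts were under 10.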
